A study of Mus musculus with 2 samples.

Results

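Shared intronic peaks of long genes were DNase-seq peaks of replicate 1 on the 19 autosomes and X that met 4 conditions. They overlapped a peak of replicate 2 by 1 bp or more, had their centre inside a protein-coding gene of 200 kb or longer (GENCODE M21), lay outside the exons of that gene, and lay more than 1 kb from every protein-coding transcription start site. There were 12138 of them among the 170217 peaks of replicate 1, and they made up 10.6% of its 114194 shared peaks, which were 67.1% of all its peaks. The same conditions applied to the list of replicate 2 gave 12164 of 162648 peaks. The genes searched were 998 of 21755 protein-coding genes, with a median length of 327 kb and a summed length of 432 Mb. Genes were compared by their number of shared intronic peaks per 100 kb of gene.

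In DNase-seq, nuclei are treated with DNase I, an enzyme that cuts DNA where chromatin leaves it exposed, and a peak marks such an accessible stretch. The only group was MN1, a mouse line of immortalized cells from strain B6NCrl, sampled as 2 biological replicates with 1 library each. No treatment, genotype, tissue of origin, age, stage or sex is given, and the line was not set against other cells. Accessible sequence inside introns is a usual place for enhancers, which act on promoters over long distances, and for sites of CTCF, a zinc-finger protein that holds chromatin loops at their base. Very long mammalian genes often encode neural adhesion molecules, receptors and channels, and several lie in common fragile sites, regions that break when replication is slowed.

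With 2 libraries of 1 group, an exact paired sign test cannot give a p below 0.5, so values are given for each library and no p is reported. The peaks of each library were called by the authors on that library by itself, and read depth is unknown, since the lists hold no read counts. Both lists held peaks of 150 bp with a score of 1 to 150, used here only as a rank within a library. Promoter peaks in both libraries were present at 10 of 10 neuronal and 8 of 10 motor neuron marker genes (the exceptions were Mnx1 and Slc5a7), against 1 of 6 blood, 1 of 5 epithelial, 2 of 5 endothelial and 0 of 5 skeletal muscle markers; the share over all protein-coding genes was 59.4%.

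To show what such a peak looks like, sequences are printed for members with the highest scores and for members that carry the patterns described further on. They are the 150 bp of each peak on the plus strand of GRCm38 (mm10), in lower case, with the named pattern in capitals. A match to a pattern is a description of the letters and not a bound site. The set from genes rich in shared peaks begins with Gse1, a gene of a chromatin-associated coiled-coil protein, whose peak at chr8:120276556-120276705 had the highest mean score percentile of all members and held none of the patterns in capitals here. Slit3, a secreted axon guidance ligand, carried the second at chr11:35587236-35587385 with the AP-1 pattern, and another Gse1 peak at chr8:120382596-120382745 carried it as well. Pde4d, a cAMP phosphodiesterase, held the cAMP response element at chr13:109822476-109822625. Phactr2, a regulator of actin and protein phosphatase 1, held the NFI pattern at chr10:13375976-13376125. Myo1d, an unconventional myosin, held the RFX pattern at chr11:80484336-80484485, and Ralgapa2, a subunit of a Ral GTPase-activating complex, held the PHOX2 pattern at chr2:146330876-146331025.
Gse1: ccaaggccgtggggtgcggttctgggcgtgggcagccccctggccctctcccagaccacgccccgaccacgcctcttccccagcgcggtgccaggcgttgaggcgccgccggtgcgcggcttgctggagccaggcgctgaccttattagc
Slit3 with AP-1: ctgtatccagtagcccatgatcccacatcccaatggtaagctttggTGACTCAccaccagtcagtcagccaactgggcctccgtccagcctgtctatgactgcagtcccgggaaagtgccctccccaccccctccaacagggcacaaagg
Gse1 with AP-1: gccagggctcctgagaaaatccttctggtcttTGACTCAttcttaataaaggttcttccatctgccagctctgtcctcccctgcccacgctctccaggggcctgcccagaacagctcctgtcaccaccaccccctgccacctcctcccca
Pde4d with CRE: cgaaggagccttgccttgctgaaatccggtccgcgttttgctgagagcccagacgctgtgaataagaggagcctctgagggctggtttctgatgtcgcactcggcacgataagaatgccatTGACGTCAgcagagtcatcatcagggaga
Phactr2 with NFI: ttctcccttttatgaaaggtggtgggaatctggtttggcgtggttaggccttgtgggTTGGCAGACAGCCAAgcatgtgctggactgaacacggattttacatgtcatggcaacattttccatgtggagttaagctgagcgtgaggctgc
Myo1d with RFX: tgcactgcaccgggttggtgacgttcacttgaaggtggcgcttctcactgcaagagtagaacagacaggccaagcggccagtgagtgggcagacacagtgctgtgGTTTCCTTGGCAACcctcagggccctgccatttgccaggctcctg
Ralgapa2 with PHOX2: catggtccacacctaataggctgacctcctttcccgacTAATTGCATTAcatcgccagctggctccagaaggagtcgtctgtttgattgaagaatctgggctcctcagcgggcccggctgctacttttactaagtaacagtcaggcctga

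A second set shows the CTCF pattern in genes with hardly any shared intronic peak, the setting in which it was most frequent. These are the 3 highest-scoring members with a match in genes of under 0.5 shared peaks per 100 kb, a choice made after the values were seen. The Aff3 peak at chr1:38185636-38185785 was the only member of that 488 kb gene, which encodes a nuclear protein of the transcription elongation machinery. The Dgkb peak at chr12:38342676-38342825 was 1 of 4 in an 817 kb gene for a diacylglycerol kinase. The Epha6 peak at chr16:59683536-59683685 was the only member in 952 kb of an ephrin receptor gene.
Aff3 with CTCF: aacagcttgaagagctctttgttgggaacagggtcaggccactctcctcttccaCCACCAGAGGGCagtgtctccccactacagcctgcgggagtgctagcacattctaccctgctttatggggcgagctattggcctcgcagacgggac
Dgkb with CTCF: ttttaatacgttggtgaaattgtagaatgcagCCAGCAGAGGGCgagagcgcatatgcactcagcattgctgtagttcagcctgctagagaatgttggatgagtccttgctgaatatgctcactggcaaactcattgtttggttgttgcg
Epha6 with CTCF: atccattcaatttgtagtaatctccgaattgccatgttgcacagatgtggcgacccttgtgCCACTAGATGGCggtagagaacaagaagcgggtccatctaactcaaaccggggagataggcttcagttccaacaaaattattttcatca

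Shared intronic peaks were spread very unevenly over the long genes. At least 1 lay in 790 of the 998 genes (79.2%), and 208 genes (20.8%) held none. The median gene held 6 (interquartile range 1 to 18), or 1.70 per 100 kb (0.226 to 5.38). Counting every intronic peak whether shared or not, the median was 3.21 per 100 kb in replicate 1 and 2.93 per 100 kb in replicate 2. Genes with 10 or more shared peaks per 100 kb numbered 65, while 362 genes had under 0.5. The 100 densest genes held 36.5% of the counts on 8.47% of the length. Because 233 members lay in more than 1 long gene, counts summed over genes came to 12478. Of the replicate 1 peaks in these introns 64.8% were shared, against 67.1% of all replicate 1 peaks, and of the replicate 2 peaks 65.9% were shared, against 70.2% of all. The overlap with the peak of the other library was 130 bp at the median member.

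The ranking of genes was close to the same in the 2 libraries. Across the 998 genes, all intronic peaks per 100 kb of replicate 1 and replicate 2 had a Pearson correlation of 0.942 and a Spearman correlation of 0.946, given as a description across genes that share 1 cell line and caller. Replicate 1 had more peaks in 445 genes, replicate 2 in 374, and 179 had equal numbers. A few genes went against this. Sntg1, a syntrophin gene, held 74 peaks in replicate 1 and 1 in replicate 2, none shared. The uncharacterized gene A830018L16Rik held 78 and 2, of which 2 were shared. Sgcz, a sarcoglycan gene, held 34 and 1, Gm7247 held 28 and 3, and Raet1e, which encodes a ligand of a natural killer cell receptor, held 22 and 1. In these 5 genes the excess was in replicate 1, so they have almost no members although replicate 1 by itself would place some of them among the denser genes.

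**Figure D1:**
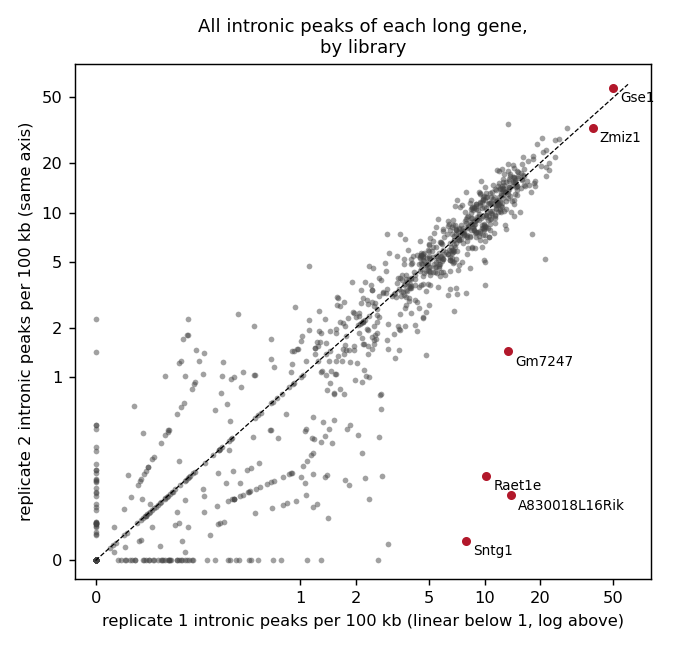
All intronic peaks per 100 kb of each of the 998 long genes in replicate 1 (horizontal) and replicate 2 (vertical), on axes that are linear below 1 and logarithmic above; the dashed line marks equal values and red points are named genes. Most genes lie near the line, Gse1 is at the top in both libraries, and Sntg1, A830018L16Rik, Raet1e and Gm7247 lie far to the replicate 1 side.

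The densest genes included regulators of transcription, RNA and the cytoskeleton. Gse1 led with 140 shared peaks in 353 kb, or 39.7 per 100 kb, from 176 peaks in replicate 1 and 202 in replicate 2. Zmiz1, a transcriptional coactivator with a zinc finger of the MIZ type, had 61 shared peaks (29.4 per 100 kb) from 80 in replicate 1 and 68 in replicate 2. Sh3pxd2a, a scaffold of invadopodia, had 46 (22.5 per 100 kb) from 57 in replicate 1 and 67 in replicate 2. In all 3, accessible sites were packed along nearly the whole gene, with longest stretches free of a shared peak of 14.8, 19.5 and 21.6 kb. Next to them, Zfp423, a zinc-finger partner of EBF factors, had 18.5 per 100 kb, Megf11, a cell-surface protein with EGF-like repeats, 17.6, and Msi2, an RNA-binding protein, 16.9. Celf4, another RNA-binding protein, had 17.0, Tead1, the DNA-binding partner of YAP, 16.3, and Abr 16.1. The promoters of these 9 genes all had a peak in both libraries.

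Gm20388 ranked among them with 19.1 per 100 kb and had the most members, 846, from 1130 peaks in replicate 1 and 1236 in replicate 2. It is a predicted gene model of 4435 kb on chromosome 8 that holds 71 whole other protein-coding genes and contains Gse1, so its count is that of a gene-rich region and not of a single intron-rich gene. It held 6.78% of all counts. The model of Fgfr2, a fibroblast growth factor receptor, spans 2961 kb with 29 whole other genes in it and held 160 members (5.40 per 100 kb). In all, 16 long gene models held 5 or more whole other genes. Among genes without that feature, Camta1, a calmodulin-binding transcription activator with 104 members, and Auts2, a neurodevelopmental regulator of chromatin with 97, had the most after Gse1. Camta1 had 155 intronic peaks in replicate 1 and 157 in replicate 2, and Auts2 had 149 and 135.

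At the other end were several of the longest genes. Lrp1b, a giant receptor of the low-density lipoprotein family, is 2058 kb long and had 9 intronic peaks in replicate 1, 1 in replicate 2 and none shared. Ptprd, a receptor phosphatase of the synapse, had 1 shared peak in 2271 kb, and Dmd, the dystrophin gene, had 3 in 2257 kb. Nrxn3, a presynaptic neurexin, held 4 peaks in replicate 1, 0 in replicate 2 and none shared over 1612 kb. Naaladl2 (1346 kb), Lingo2 (1245 kb), Cntn5 (1244 kb) and Ccser1 (1203 kb) had no intronic peak in either library. Il1rapl2 and Cdh12 had 4 and 3 peaks in replicate 1, with 1 and 0 in replicate 2. A stretch of 500 kb or more without a shared peak was present in 105 genes. These counts say that no peak was called, which at unknown depth is not proof that the DNA was closed.

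The density of shared peaks in the introns went with the state of the gene's own promoter. A promoter peak was a peak within 1 kb of any annotated protein-coding start site of the gene, and such peaks are not members. It was present in both libraries in 570 long genes (57.1%, against 59.4% of all protein-coding genes), in 1 library in 42 and in neither in 386. Genes with it in both had a median of 4.54 shared intronic peaks per 100 kb (interquartile range 2.14 to 7.27), and genes with it in neither had 0.188 (0 to 0.571), a ratio of 24.2. The 42 genes with it in 1 library had 0.370. In replicate 1 alone the medians of all intronic peaks were 6.97 and 0.515 per 100 kb, and in replicate 2 alone they were 6.88 and 0.422. The genes with a promoter peak in both libraries held 90.2% of the counts. By density of shared peaks, 14.9% of genes under 0.5 per 100 kb had an accessible promoter in both libraries, 51.9% at 0.5 to 2, 85.1% at 2 to 5, 94.1% at 5 to 10 and 98.5% at 10 or more. No shared peak was found in 25 of the 570 genes with a promoter peak in both and in 172 of the 386 with it in neither.

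The difference was present at each gene length. For genes of 200 to 300 kb the medians were 5.0 per 100 kb with a promoter peak in both libraries and 0.437 with it in neither. From 300 to 500 kb they were 4.15 and 0, and from 500 kb up 3.83 and 0.0833. Genes of 20 to 200 kb had a like split, with medians of 3.94 and 0. Expression was not measured, and whether the promoter, the introns or the chromatin of the whole domain comes first cannot be told apart here.

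**Figure D2:**
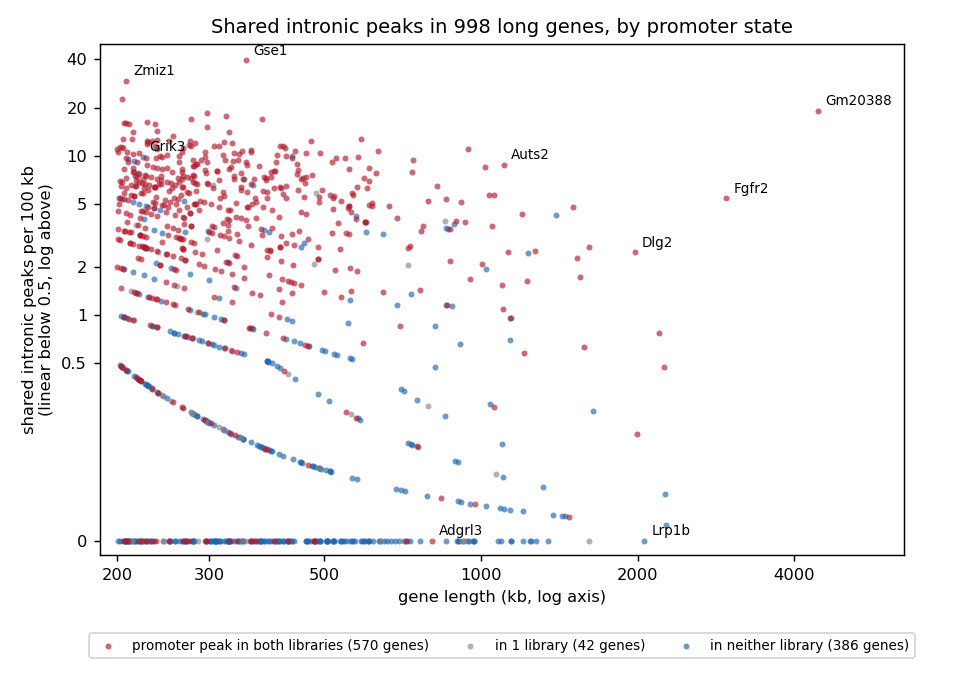
Shared intronic peaks per 100 kb (vertical, linear below 0.5 and logarithmic above) against gene length (horizontal, logarithmic) for 998 long genes, coloured by the presence of a promoter peak. Genes with a promoter peak in both libraries fill the band above 2 per 100 kb, genes with it in neither lie mostly below 0.5, and the curved rows of points are genes with equal small counts.

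Exceptions ran both ways. Of the genes with a promoter peak in neither library, 8 were among the densest 25% of long genes. Grik3, a kainate receptor subunit, had 22 shared peaks (9.84 per 100 kb) from 30 in replicate 1 and 44 in replicate 2. Cubn, the intrinsic factor receptor, had 20 (9.28 per 100 kb) and Pde11a, a phosphodiesterase, 25 (7.15 per 100 kb). Arhgap26 is listed there with 9.91 per 100 kb for its longer gene record, but a second record of the same symbol had 7.31 per 100 kb and a promoter peak in both libraries. In the other direction, 29 genes with a promoter peak in both libraries were among the sparsest 25%. Adgrl3, a latrophilin adhesion receptor of 805 kb, had 1 intronic peak in replicate 1, 0 in replicate 2 and none shared. Its promoter peak was weak, at score percentiles of 3.69 in replicate 1 and 2.62 in replicate 2. Diaph2, a formin, and Eda, the ectodysplasin ligand, had none shared in 716 and 425 kb, and both lie on X. Their promoter peaks stood at percentiles of 80.6 and 67.4 for Diaph2 and 89.6 and 88.8 for Eda.

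Where the first accessible start site lay well inside a gene, shared peaks were more frequent after it than before it. The most upstream start site with a peak in both libraries was found for 568 of the 570 genes, and in 63 of them it lay 50 kb or more from the annotated 5′ end. Over these 63 genes, 604 members lay downstream of it in 13.3 Mb and 401 lay upstream in 21.9 Mb, or 4.55 and 1.83 per 100 kb. The gap was wider in the 34 genes with that site 200 kb or more inside (4.31 and 1.45 per 100 kb) than in the 29 with it at 50 to 200 kb (4.85 and 3.60). For all intronic peaks, replicate 1 had 6.77 per 100 kb downstream and 3.01 upstream, and replicate 2 had 6.89 and 2.86. The downstream part was denser in 42 of the 63 genes and the upstream part in 17. Lsamp, an adhesion molecule of the limbic system, had its first accessible start site 1549 kb into the gene, with 16 members after it (2.47 per 100 kb) and 1 before it (0.0646 per 100 kb). Hdac9, a histone deacetylase, had 26 after (5.40 per 100 kb) and 4 before (1.03 per 100 kb). Pde4d had 50 after (7.22 per 100 kb) and 22 before (2.71 per 100 kb). Against this, Adgrb3, an adhesion receptor, had 0 after and 11 before, and Creb5, a factor that binds cAMP response elements, had 0 after and 9 before.

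In the map of the longest genes, members of several genes lay near the 3′ end. Cntnap2, a member of the neurexin superfamily, is 2245 kb long and had no member in a stretch of 1954 kb from the 5′ end. Its first accessible start site was at 2185 kb, with 2 members after it (3.34 per 100 kb) and 9 before it (0.412 per 100 kb). Dlg2, a synaptic scaffold, had an accessible 5′ end, and yet no member lay in the first 749.98 kb. When each of the 998 genes was cut into 10 equal parts from the 5′ to the 3′ end, parts 1 to 8 had between 2.69 and 2.98 shared peaks per 100 kb of intron, and parts 9 and 10 had 3.47 and 3.78. Close to the 5′ end itself members were more frequent, with 2.30% of counts (287) within 5 kb of it for 1.15% of the length, against 0.866% (108) within 5 kb of the 3′ end. Within 50 kb the shares were 12.1% at the 5′ end and 15.1% at the 3′ end, for 11.5% of the length each. These shares are set against whole gene length, although members by definition lie outside exons and away from start sites. The sequence open to members near each end was not measured, so the low value at the 3′ end may partly follow from that definition. Of the 10 parts, the first held 40.8 Mb of intron and the last 38.1 Mb.

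**Figure D3:**
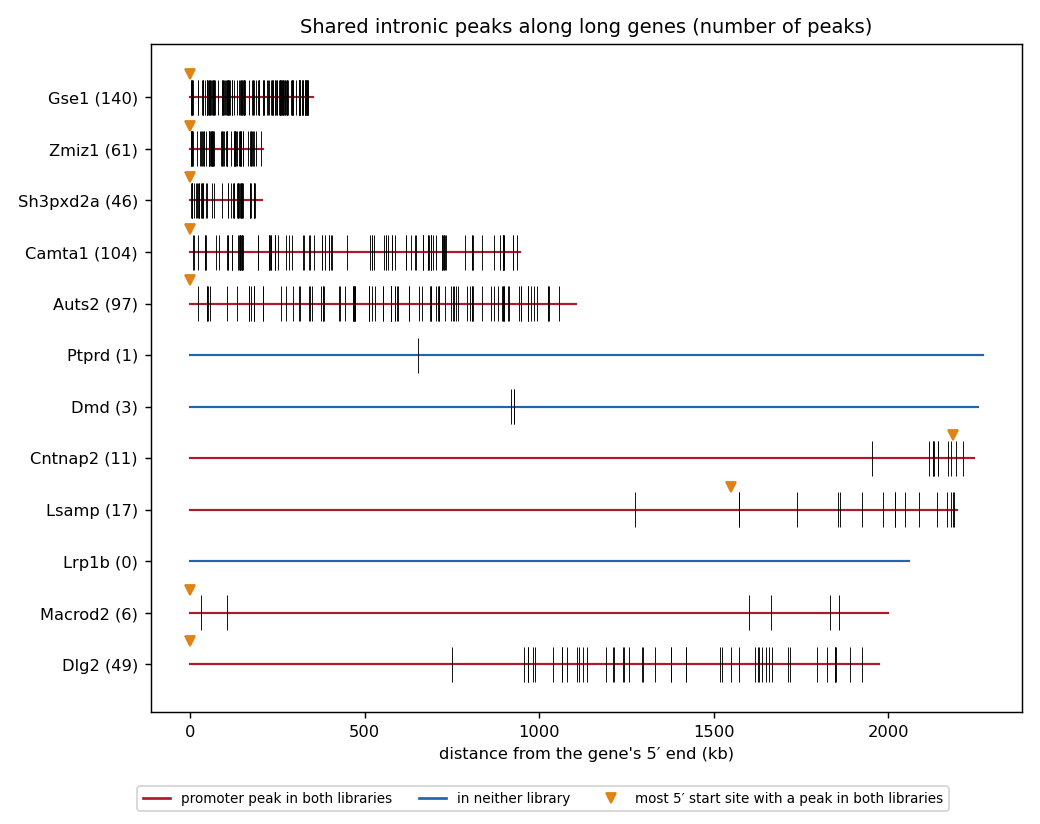
Positions of shared intronic peaks (black ticks) along 12 genes, in kb from the 5′ end, with the number of peaks after each name; line colour gives the promoter state and the triangle the most 5′ start site with a peak in both libraries. Gse1, Zmiz1 and Sh3pxd2a are filled from end to end, Ptprd, Dmd and Lrp1b are almost empty, Lsamp has its ticks mostly after a start site far inside the gene, and Cntnap2 has 9 of 11 before such a site.

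Pooled over genes, long genes were sparser than shorter genes. Shared intronic peaks came to 2.89 per 100 kb over genes of 200 kb or longer and to 4.52 per 100 kb over the 9070 genes of 20 to 200 kb, a ratio of 0.638. All intronic peaks of replicate 1 were at 4.44 in the long and 6.79 per 100 kb in the shorter genes, and those of replicate 2 at 4.38 and 6.73. Among the long genes the median was 3.08 per 100 kb at 200 to 250 kb, 2.74 at 250 to 300 kb, 1.31 at 300 to 400 kb, 1.09 at 400 to 500 kb, 0.567 at 500 to 750 kb, 0.365 at 750 to 1000 kb and 0.384 above. The share of genes whose promoter had a peak in both libraries was 65.9% in the first of these classes and 45.8% in the last; in the 20 to 200 kb class it was 72.2%. Within promoter states the medians of long genes were not below those of the whole class of 20 to 200 kb. With a promoter peak in both libraries they were 4.54 and 3.94 per 100 kb, and with it in neither 0.188 and 0. Over all genes of a class, the median was 1.70 in long genes and 2.88 per 100 kb at 20 to 200 kb, the same direction as the pooled density. Only the medians within promoter states went the other way. Of genes with a promoter peak in neither library, 63.1% of those of 20 to 200 kb held no shared intronic peak, against 44.6% of long genes. Genes of 100 to 200 kb had medians of 4.30 with it in both and 0.595 with it in neither, the latter above that of long genes. Among long genes with it in both, the median fell from 5.0 at 200 to 300 kb to 3.83 from 500 kb up. At the length limit itself there was no step. The 67 genes of 200 to 210 kb had a median of 3.0 per 100 kb and the 74 genes of 190 to 200 kb a median of 3.06.

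Gene lists by function, chosen with earlier results of these data known, differed widely in density. The lists held 273 of the 998 genes, and each median can be read against 1.70 per 100 kb for all long genes. Signalling enzymes and growth factor genes had a median of 3.61 per 100 kb over 35 long genes, 19 of them (54.3%) above the median of all. They stood first by median, but the order at the top changed with the processing, and by share of genes above the median of all, scaffold genes led (22 of 33, 66.7%). Trio, a guanine nucleotide exchange factor with a kinase domain, had 10.5 per 100 kb, Prkce, a protein kinase C, 10.4, and Igf1r, the receptor of insulin-like growth factor 1, 8.55. Ntrk2, the BDNF receptor, and Ror1, a receptor of WNT5A, had none. Transcription factors had a median of 3.39 over 43 genes, 24 of them above the median of all. Zfp423 had 18.5 per 100 kb, Nfib, a nuclear factor I protein, 11.5 (48 shared, from 59 and 64 peaks), and Camta1 11. Zfp521 and Zfp536 had none.

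Scaffold and cytoskeletal genes had a median of 2.68 per 100 kb over 33 genes, and 32 of them held at least 1 shared peak. Pard3, a polarity protein, had 9.66 and Myo18b, a myosin of striated muscle, 9.64, while Rims1, a presynaptic active zone protein, had none. The 14 blood cell genes had a median of 2.51, 8 of them with a promoter peak in both libraries, the same share (57.1%) as among all long genes. Bach2, a transcription factor of lymphocytes, had 10.7 per 100 kb, whereas Mctp2 had none and Inpp4b, a phosphoinositide phosphatase, 0.127. Genes of common fragile sites had a median of 2.29 over 18 genes. Rad51b, a DNA repair gene, had 9.08 and Auts2 8.77, and Lrp1b and Naaladl2 had none. Wwox, an oxidoreductase gene at a fragile site, was singled out after its values were seen, because it had 166 intronic peaks in replicate 1, 68 in replicate 2 and 47 shared.

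Lists of neural surface molecules had medians below that of all long genes. Ion channels had a median of 0.479 per 100 kb over 31 genes, cadherins and catenins 0.412 over 14, and axon guidance molecules 0.272 over 18. Synaptic and neural adhesion genes had 0.187 over 38, and glutamate and GABA receptors 0.167 over 22, of which 2 were above the median of all long genes. Muscle and extracellular matrix genes were at 0.196 over 20. These lists also held longer genes than the 327 kb median of all, up to a median of 904 kb for adhesion genes and 867 kb for cadherins and catenins, and all long genes of 750 to 1000 kb had a median of 0.365 per 100 kb. In each of the 11 lists the median was higher for genes with a promoter peak in both libraries than for genes with it in neither. The 6 axon guidance genes with a promoter peak in both libraries had a median of 5.77 per 100 kb (1.39 to 12.8), and the 12 with it in neither a median of 0.0525 (0 to 0.973), and these groups did not overlap. In other lists they did, as among cadherins and catenins (0.636 to 2.72 with it, 0 to 2.85 without it), and over all long genes the ranges were 0 to 39.7 and 0 to 9.91. Ion channel genes had 4.69 over 11 genes with it and 0.330 over 18 without it, and adhesion genes 2.41 over 15 and 0.0584 over 22.

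Single genes show the contrast. Slit3 held 75 shared peaks (12.8 per 100 kb) from 126 in replicate 1 and 98 in replicate 2, and the guidance receptor Plxna4 held 36 (8.11 per 100 kb) from 49 and 50. Robo2, a receptor of SLIT proteins, had no intronic peak in either library, and Robo1 had 2 shared peaks in 738 kb. Dscaml1 and Dscam, adhesion molecules of the immunoglobulin family, had 14.1 and 9.83 per 100 kb, while Ntm, another molecule of that family, had none. Among channels, Cacna1a, the pore of P/Q-type calcium channels, had 12.3 per 100 kb and Kcnq1, a potassium channel, 12.2, while Kcnq5 and Kcnt2 had none. Among receptors, Grm5, Grm7, Grin2a and Grik2 had none. Fbn1, which encodes fibrillin, had 4.34, and Tmem132c had none.

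**Figure D4:**
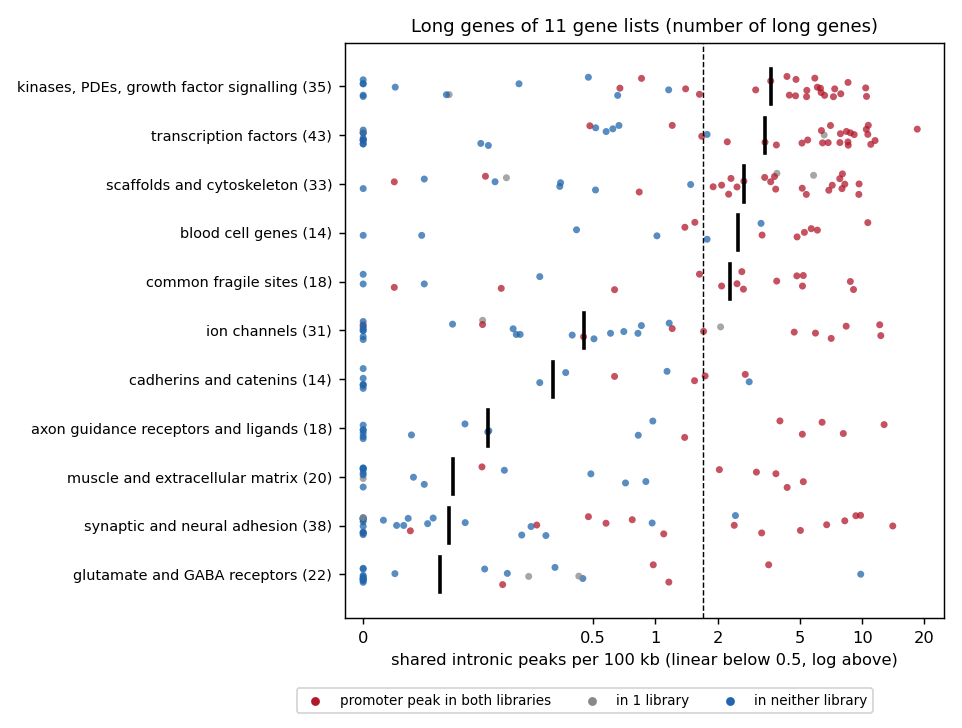
Shared intronic peaks per 100 kb of the long genes in 11 gene lists (1 point per gene, coloured by promoter state; black bars are list medians, and the dashed line is the median of all 998 long genes). The medians of 5 lists lie to the right of the dashed line and those of 6 lists to its left, and in most lists the genes with a promoter peak in both libraries lie to the right.

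Sequence patterns in the members differed between sparse and dense genes. The 150 bp of each member were searched on both strands for 24 patterns, and windows of equal length 1 kb to each side served as flanks. The CTCF pattern, CCNNNAGNNGGC with N for any base, was in 9.90% of members (1202 of 12138, 95% Wilson interval 9.38 to 10.4) and in 2.01% of flanks. The interval covers counting error only, since peaks of the same libraries are not replicates. By density of the gene, the share of members with this pattern was 36.1% (79 of 219, 30 to 42.6) in genes of under 0.5 shared peaks per 100 kb, 17.1% at 0.5 to 2, 9.17% at 2 to 5, 8.39% at 5 to 10 and 9.50% (8.54 to 10.6) at 10 or more. The flanks held it in 1.37% in the sparsest and in 3.18% in the densest genes. A member in more than 1 long gene was put with the densest of them.

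The AP-1 pattern, TGANTCA, which is bound by dimers of FOS and JUN proteins, ran the other way at the sparse end. It was in 3.65% of members in genes of under 0.5 per 100 kb (8 of 219, 1.86 to 7.04), an interval that covers the 6.16% of their flanks. In the 4 denser classes it was in 14.2%, 16.3%, 15.2% and 15.1%, with 4.32% to 4.55% in flanks. Among all intronic peaks of replicate 1 it was in 7.47% in the sparsest and 13.2% in the densest class, and of replicate 2 in 6.65% and 14.2%. The E-box CAGCTG, recognized by basic helix-loop-helix proteins, was in 8.22% of members of the sparsest genes and in 18.6% of members of the densest, with 5.02% and 8.64% in their flanks. Per length, members with the CTCF pattern came to 0.0439 per 100 kb in the sparsest class and 1.31 in the densest, while members without it came to 0.0777 and 12.8.

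With the CTCF pattern as searched above, the higher share in sparse genes was also present among members with high scores. It was present among all intronic peaks of each library too, but these include the shared peaks. Among members in the upper 50% of scores the CTCF share was 33.9% in the sparsest genes and 10.8% in the densest. Within the sparsest genes it was 37.3% (51 members) for genes with a promoter peak in both libraries and 35.7% (168 members) for the rest. Counting all intronic peaks of a library in the same gene classes, replicate 1 had 16.4%, 13.7%, 7.35%, 7.25% and 8.71% from sparse to dense, and replicate 2 had 14.7%, 12.0%, 6.58%, 6.80% and 7.70%. Because the classes were set by the shared peaks and each list includes them, the library values are no separate support. The share by class among peaks found in a single library was not counted. Without the members in Gm20388 the densest class stood at 8.81%. A stricter CTCF pattern, with fewer free bases, matched 5.02% of members (11 of 219, 2.83 to 8.77) in the sparsest genes. In the densest genes it matched 1.26% (0.934 to 1.71). Among members in the upper 50% of scores the stricter pattern matched 1 of 62 (1.61%, 0.285 to 8.59) in the sparsest genes. In the densest it matched 1.18% of such members. With 1 match, the stricter pattern cannot show whether the contrast holds at high scores. The median GC content moved along with density, at 46.0% in members of the sparsest and 52.7% in members of the densest genes, and so did the median score percentile in replicate 1, at 40.6 and 65. Their part in the difference was not tested.

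**Figure D5:**
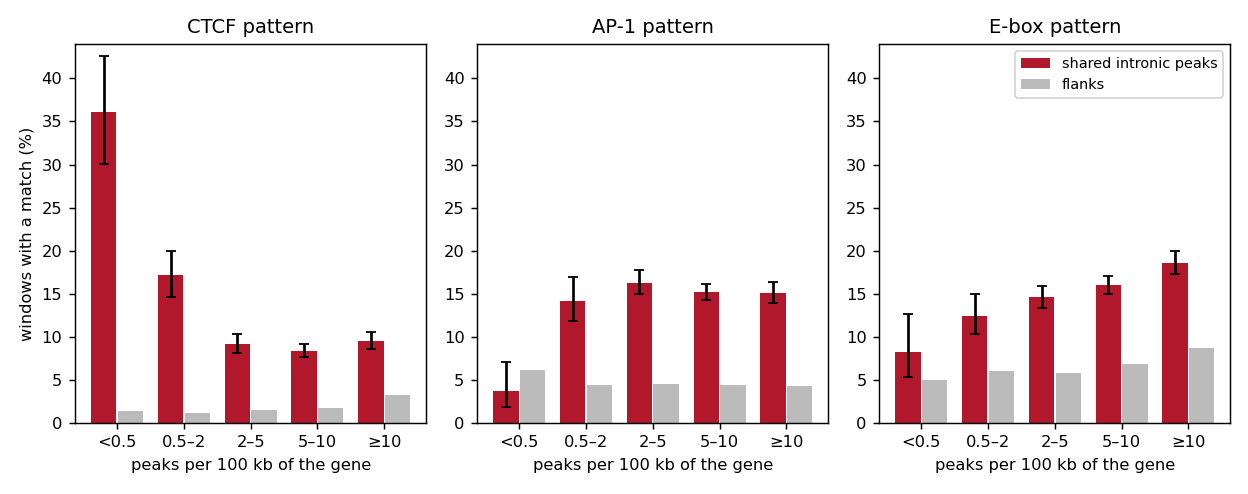
Share of 150 bp windows with a match to the CTCF, AP-1 and E-box CAGCTG patterns (percent) by shared intronic peaks per 100 kb of the gene, for members (red, with 95% Wilson intervals) and for flanks 1 kb away (grey). The CTCF share is highest in the sparsest genes at 36.1%, where the AP-1 share is lowest at 3.65%.

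Other patterns exceeded the flanks as well. AP-1 was in 15.1% of all members and 4.45% of flanks, and CAGCTG in 16% and 6.98%. The EBF pattern TCCCNNGGGA was in 2.27% of members and 0.474% of flanks, PHOX2, TAATNNAATTA, in 0.783% and 0.239%, and the cAMP response element TGACGTCA in 0.371% and 0.115%. The PHOX2 pattern resembles the homeodomain core TAATTA without always containing it. Longer patterns were rare, with RFX, GTTNCCNNGGNAAC, in 50 members (0.412%, against 0.0453% of flanks), and NFI, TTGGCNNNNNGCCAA, in 32 members (0.264%, against 0.00824%). The pattern furthest below its flanks was also an E-box, CATATG, in 2.76% of members and 4.02% of flanks (ratio 0.686). Others below the level of the flanks included MEF2 (CTANNNNTAG, ratio 0.890), SOX (AACAAAG, 0.900), FOX (TGTTTAC, 0.938) and REST (AGCACCNNGGACAG, 0.800), the last with 2 matches.

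Compared with other shared peaks outside promoters, a smaller share of members held the CTCF pattern and a larger share a homeodomain core. CTCF matched 9.90% of members, 12.9% of shared intronic peaks in genes of 20 to 200 kb (23451 peaks) and 14% of intergenic ones (40351 peaks). The flanks of these sets held it in 2.01%, 2.87% and 2.77%, so that relative to flanks the members, at 4.93, lay between the introns of shorter genes (4.48) and intergenic peaks (5.08). TAATTA matched 6.67% of members (6.24 to 7.13), 4.87% of the intronic peaks of shorter genes (4.61 to 5.16) and 4.93% of the intergenic ones. The flanks of these sets held TAATTA in 4.81%, 3.67% and 4.04%, so the ratios to flanks were 1.39, 1.33 and 1.22. AP-1 was close in all 3 sets, at 15.1%, 15.5% and 14.5%. Peaks in long introns found in a single library had the CTCF pattern in 6.16% for replicate 1 and in 3.16% for replicate 2.

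Members were moderately GC-rich and poor in repeats. Their median GC content was 49.3%, against 45.3% in their flanks and 51.3% in shared intronic peaks of genes of 20 to 200 kb. Repeat-masked bases made up 7.97% of members and 20.4% of flanks. Members scored slightly lower than other shared peaks, with a median percentile of 56.9 in replicate 1 and 53.2 in replicate 2, against 58.9 and 57.5 for introns of shorter genes and 80.6 and 83.1 for promoters. A start site of a long noncoding RNA lay within 1 kb of 243 members (2.00%), and 652 (5.37%) lay inside another, shorter protein-coding gene. Neighbouring members in a gene were 6.50 kb apart at the median, against 4.10 kb in genes of 20 to 200 kb, and 38.1% and 36.8% of peaks had a neighbour within 1 kb. A gap cannot exceed the length of its gene and a lone peak gives none, so shorter genes are bound to shorter gaps. Peaks alone in their gene or over 100 kb from a neighbour were 2.10% in long genes and 7.13% in the shorter ones.

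Long genes on X were sparse. The 45 long genes on X held 91 members, or 0.442 per 100 kb pooled, against 3.01 on the autosomes. The medians were 0 on X and 1.95 on the autosomes. Among genes with a promoter peak in both libraries the median was 0.452 per 100 kb for 20 genes on X and 4.78 for 550 on the autosomes, so the difference was also present among genes with accessible promoters. Replicate 1 had 0.962 and replicate 2 0.811 intronic peaks per 100 kb on X. The sex of the line is not given and copy number was not measured, and their part in the difference was not tested. On the autosomes the pooled density ranged from 1.87 per 100 kb on chromosome 1 to 5.91 on chromosome 8, which holds Gse1 and Gm20388. Gm20388 held 846 of the 1447 members of chromosome 8, where the median long gene had 1.38 per 100 kb, below the autosomal 1.95.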

How the data were processed

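DNase-seq of 2 biological replicates of MN1 cells was used, with 1 list of peaks and 1 list of hotspots per library on mm10. The notes deposited with the files say that each library was processed from its own filtered reads and that replicates were not pooled. The aligner, the peak caller and any cutoff are each not given in the sources used here. What follows starts from these lists. The peaks deposited by the authors carry a score, used here only as a percentile within a library, and the deposited hotspots carry q-values on the −log10 scale (1.30 to 100 in both libraries), used only to check that each peak lies in a hotspot. Read depth is unknown.

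Repeated entries (43 in replicate 1, 20 in replicate 2) were removed. Genes, exons and start sites came from GENCODE M21 and sequence from the RefSeq copy of GRCm38. Peak centres were assigned to genes in Python 3.11.15 with NumPy 2.4.6, pandas 2.3.3 and SciPy 1.17.1, and the assignment was tested on simulated data. The density was members per 100 kb of gene. Comparison classes were genes of 20 to 200 kb, promoters (within 1 kb of a start site) and intergenic sequence. Patterns were matched on both strands in the peak and in windows 1 kb to each side. Wilson intervals at 95% cover counting error only.

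The genes named were the 10 densest, the 5 with most members, the 10 longest, the 8 longest with none, up to 3 high and 2 low genes of each of 11 lists, and the 5 most unequal between libraries with 20 or more peaks in the higher one. The peaks named were the 6 with the highest mean score percentile and the highest-scoring match of each pattern over 2 times its flanks; members in Gm20388 outside Gse1, chosen by this rule, are not printed. Genes that depart from the promoter split, and those with a start site far inside the gene, were picked from ranked tables after the values were seen. Some genes that the rule names are not shown in the text. The members and lists were chosen with earlier results of these data known, and the split by first accessible start site and by density class was added during the analysis. The 12 alternative settings are described under the dependence on the processing.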

Additional observations from a re-analysis of the deposited data

How the results depend on the processing

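Without replicate 1 or without replicate 2 no overlap can be asked for, and the number of members was then 18464 to 18745 (12138 as reported), the median density 2.93 to 3.21 per 100 kb (1.70), the ratio of long genes to genes of 20 to 200 kb 0.651 to 0.655 (0.638), the ratio of genes with a promoter peak in both libraries to genes with it in neither 13.5 to 16.3 (24.2), and the share with the CTCF pattern 7.60% to 8.58% (9.90%). With the upper 50% of scores there were 7022 members at a median of 0.710 per 100 kb, a length ratio of 0.602 and a CTCF share of 12.0%; the promoter ratio gave no value, because the median of genes without a promoter peak was 0. With genes of 300 kb or longer there were 7995 members at 0.827 per 100 kb, with a length ratio of 0.555 and a promoter ratio of 51.1. At 2.5 kb from start sites the median was 1.496, the length ratio 0.723 and the promoter ratio 26.4. An overlap of 75 bp gave a length ratio of 0.628 and a CTCF share of 10.6%, density per length of intron gave a length ratio of 0.555, and leaving out genes with single-library blocks gave 0.641. Leaving out the 16 gene models that hold 5 or more whole other genes, an alternative chosen after seeing the data, gave a length ratio of 0.593 and a promoter ratio of 32.0. The stricter CTCF pattern matched 1.36%. Among gene lists, transcription factors had the highest median with an overlap of 75 bp (3.26) and without those 16 models (3.39), scaffold genes with the upper 50% of scores (1.65) and blood cell genes at 300 kb or longer (4.07). Pooled, long genes stayed sparser than shorter ones, and genes with a promoter peak denser than genes without under each setting that gave a value. No paired analysis was possible because there is 1 group. Unknown depth limits every statement that a peak is missing.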
